A study of Homo sapiens with 10 samples.

Results

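The genes of MHC class I antigen presentation were followed in MCF10A mammary epithelial cells. The 9 genes were chosen by symbol, not by a rule on their values, but with earlier results of these data known. They were the heavy chains HLA-B, HLA-C, HLA-E and HLA-F and the light chain B2M. With them went the peptide transporter subunits TAP1 and TAP2 and the immunoproteasome subunits PSMB8 and PSMB9. Each symbol had 1 row among the 26256 genes of the table of untreated cells and 1 row among the 55736 genes of the Nutlin-3a table. All 9 genes passed the filter on low counts in both tables.

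Poly(A) RNA-seq of 10 libraries was read. MCF10A is a nontransformed, immortalized human breast cell line, and the untreated comparison set 2 libraries of parental cells against 2 libraries of G12V cells. G12V cells are MCF10A cells infected with a lentivirus carrying the G12V mutant of HRas, along with a GFP vector, and kept as a population selected with hygromycin, so differences between selected and unselected cells and differences due to the oncogene cannot be told apart. The other experiment set 3 libraries of parental cells given 10 µM Nutlin-3a for 4 h, which frees p53 from MDM2, against 3 libraries given the vehicle DMSO. All cells grew in medium with cholera toxin, EGF, insulin, hydrocortisone and horse serum. Total counts were 21538593 to 23683975 per untreated library and 15453226 to 17378734 per library of the Nutlin-3a experiment.

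Class I molecules show peptides from inside the cell to CD8 T cells. Proteasomes cut proteins to peptides, the transporter of TAP1 and TAP2 carries them into the endoplasmic reticulum, and there they are loaded onto a heavy chain paired with B2M. Interferons raise this whole set in most tissues through factors such as IRF1 and NLRC5, and the subunits PSMB8 and PSMB9 then take the places of PSMB5 and PSMB6 in newly built proteasomes.

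The promoters are shown first because the class I heavy chain genes share a compact upstream region with elements for NF-κB, interferon regulatory factors and the NLRC5-bound SXY module. RefSeq promoter stretches on GRCh38.p14 were matched for 8 of the 9 genes. The RefSeq table held none for HLA-E. The lines give bases -180 to -61 before the start of transcription, and capitals mark matches, on either strand, to the NF-κB consensus, GAANNGAAA (interferon regulatory factor), TGACG (the X2 or cAMP response element) and ATTGG (the Y box). They are reference sequences, and the alleles of the cell line may differ.
HLA-B (chr6:31357240-31357359, minus strand): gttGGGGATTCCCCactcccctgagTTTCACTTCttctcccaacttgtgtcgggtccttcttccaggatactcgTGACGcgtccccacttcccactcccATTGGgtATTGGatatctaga
HLA-C (chr6:31272153-31272272, minus strand): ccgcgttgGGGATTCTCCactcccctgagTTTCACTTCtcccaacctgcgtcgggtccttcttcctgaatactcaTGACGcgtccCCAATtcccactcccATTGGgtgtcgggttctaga
HLA-F (chr6:29723254-29723373, plus strand): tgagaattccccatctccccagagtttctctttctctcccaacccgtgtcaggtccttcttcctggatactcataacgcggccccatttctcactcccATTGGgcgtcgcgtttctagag
B2M (chr15:44711337-44711456, plus strand): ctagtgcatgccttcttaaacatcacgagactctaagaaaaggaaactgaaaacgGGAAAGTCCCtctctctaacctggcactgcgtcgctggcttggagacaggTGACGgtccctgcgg

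Of the letters searched, HLA-B and HLA-C held all 4 kinds of match in this stretch, and HLA-F held the Y box alone. The interferon regulatory factor letters allow a single spacing of their parts. Runs with a wider spacing, such as tttctctttc in HLA-F and gaaactgaaa in B2M, could not match and stand in lower case. The lack of a match therefore does not show that HLA-F or B2M lacks an interferon element. In HLA-B the NF-κB consensus matched in overlapping positions, and matches to different motifs did not overlap. In the full windows of 300 bases, from 250 before to 50 after the start, the NF-κB consensus occurred in 5.91% of all 35116 RefSeq promoters, the interferon regulatory factor letters in 7.66%, the X2 letters in 24.6% and the Y box in 34.6%. For the transporter and proteasome genes, 30 bases around each match to the NF-κB or interferon regulatory factor motif are shown.
TAP1, before the start (chr6:32853757-32853786, minus strand): gcctgttcctGGGACTTTCCgagagccccg
TAP1, after the start (chr6:32853663-32853692, minus strand): accggggcgcGGAGAGTCCCaggcccggcc
TAP2 (chr6:32838784-32838813, minus strand): ccttggctgggGAAGCGAAAgcgaaagctg
PSMB8, second start (chr6:32844027-32844056, minus strand): gtggctttcgcTTTCACTTCctcctccgag
The windows of PSMB9, of the first PSMB8 start and of the second TAP1 start held no match to these longer motifs. TAP1 and PSMB9 are read in opposite directions from neighbouring starts, 488 bases apart for the first TAP1 start. No window of the 8 genes matched the p53 element, which 0.0285% of all promoters matched. These matches describe letters and do not show that a factor bound there.

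Before the members, the labels were checked. HRAS stood at 72.6 and 65.9 CPM (reads of a gene over the library's total, scaled by the trimmed mean of M values) in MCF10A and at 630 and 515 CPM in G12V. Of the 10 breast epithelial markers listed, 9 were tested and 6 fell in G12V: KRT5, KRT14, KRT17, CDH1, EPCAM and TP63. CDH1, the adhesion molecule E-cadherin, had 4390 and 5406 reads in MCF10A and 10 and 12 reads in G12V, and KRT14 had 8848 and 9593 against 2 and 3 reads. KRT8 remained at 210 and 233 CPM in G12V, beside 218 and 172 CPM in MCF10A. The summed epithelial markers ranged from 8971 to 12687 CPM in MCF10A and from 1721 to 2567 CPM in G12V, so the class I values below compare cells that also differed in epithelial markers.

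Haematopoietic cells carry much class I, and their markers summed to 23.6 to 48.6 CPM in MCF10A and 40.4 to 184 CPM in G12V. Of the 9, 3 were tested, edgeR's quasi-likelihood test called 0, and 1, LAPTM5, had an unadjusted p under 0.05. CD14 and LAPTM5 made most of these sums. CD14 had 396 and 839 reads in MCF10A and 508 and 888 in G12V, and LAPTM5 had 79 and 214 in MCF10A and 398 and 3209 in G12V, while PTPRC (CD45) had 1 read in MCF10A replicate 1 and none in the other 3 libraries, and MS4A1 was at 0 in all 4. Endothelial markers summed to 8.09 to 32.2 CPM in MCF10A and 7.91 to 8.78 CPM in G12V, where 2 of 4 were tested, 0 were called and 1, KDR, had an unadjusted p under 0.05. Fibroblast markers summed to 37.5 to 64.9 and 53.4 to 60.1 CPM, and COL3A1 was at 0 throughout. Of 8 listed 4 were tested, 1 was called and 2 had an unadjusted p under 0.05 in edgeR's quasi-likelihood test. LUM, the called gene, rose from 1 and 0 reads to 28 and 27. COL1A1, not called, was lower in G12V, at 8.70 CPM in MCF10A and 3.94 CPM in G12V on average (log2 fold change -1.14). The part of these markers in the class I values was not tested. In bulk RNA, more RNA per cell and more cells of a high-expressing kind cannot be told apart.

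In G12V cells 3 of the 9 class I genes rose and none fell. The immunoproteasome subunit PSMB9 rose 6.69-fold, the heavy chain HLA-B 2.46-fold and the immunoproteasome subunit PSMB8 1.82-fold. TAP1 was 1.94-fold higher but missed the threshold, and the remaining 5 genes, B2M among them, differed by less than 1.5-fold either way. A gene was called at an adjusted p under 0.05 by edgeR's quasi-likelihood test, Benjamini-Hochberg over 14376 genes, with an absolute log2 fold change above 0.5. By this rule 11.0% of all tested genes were called, 5.01% higher and 5.95% lower. In 7 of the 9, HLA-E and B2M being the exceptions, both G12V libraries lay above both MCF10A libraries, as in 27.5% of all tested genes. The median log2 fold change was 0.51 over the 9 genes and -0.0011 over all genes.

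The calls depended on which libraries were present. Without MCF10A replicate 1, edgeR's quasi-likelihood test called 0 of the 9 genes and 0 genes of the whole table, while 4 of the 9 and 2830 genes had an unadjusted p under 0.05. Without any other single library it called 2 or 3 of the 9. HLA-B and PSMB9 were among them each time, whereas PSMB8 was lost when any of the 4 libraries was left out. DESeq2 and edgeR's exact test on all libraries called 4 of the 9, the same 3 genes and TAP1. The exact test also called more genes over the whole table, as given in the last section. Its further call need not be particular to the class I genes.

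**Figure D1:**
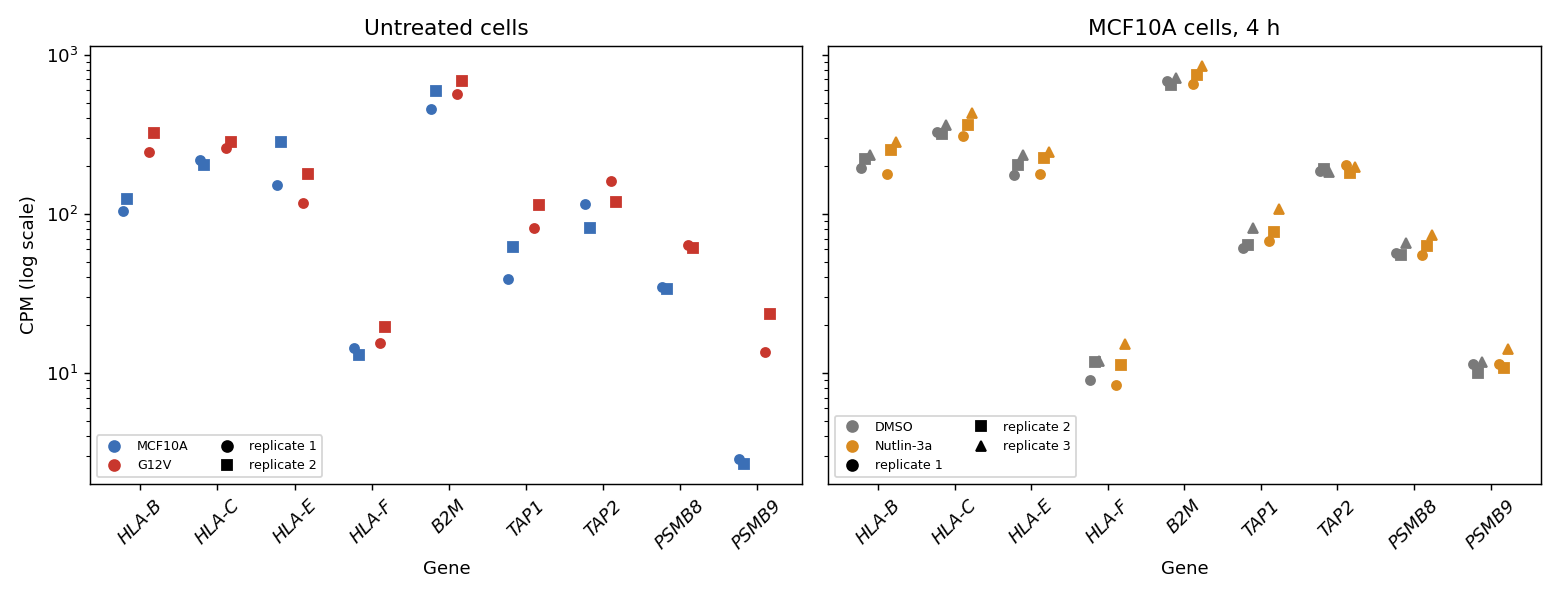
CPM of the 9 class I genes (y axis, log scale) in every library, with the untreated cells at left and the Nutlin-3a experiment at right. Colours give the group and marker shapes the replicate number. PSMB9 rises from 2.86 and 2.69 CPM in MCF10A to 13.5 and 23.6 CPM in G12V, and no gene separates the groups at right.

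Among the heavy chains, which hold the peptide and face the T cell receptor, HLA-B was the gene that rose (chromosome 6, 31321649 to 31324989 in hg19, minus strand). It was read at 105 and 124 CPM in MCF10A and at 243 and 320 CPM in G12V. Both G12V libraries lay above both MCF10A libraries, and the lower G12V value was higher than the upper MCF10A value by more than the gap within either group. The log2 fold change was 1.3 ± 0.22 (SE, n = 2 per group, 95% interval 0.75 to 1.85; adjusted p = 0.0189, edgeR's quasi-likelihood test).

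HLA-C, the other classical heavy chain measured here, stood at 217 and 204 CPM in MCF10A and at 261 and 282 CPM in G12V. The groups did not overlap. Its log2 fold change of 0.37 ± 0.18 (SE, n = 2 per group) did not pass (adjusted p = 0.284, edgeR's quasi-likelihood test), and the 95% interval ran from -0.08 to 0.82.

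HLA-E, which presents leader peptides of other class I chains to NK cell receptors, was the member whose fitted change was below 0. It was read at 151 and 283 CPM in MCF10A and at 118 and 179 CPM in G12V. The MCF10A libraries were far apart and the groups overlapped. Its log2 fold change of -0.55 ± 0.36 (SE, n = 2 per group, 95% interval -1.43 to 0.32) did not pass (adjusted p = 0.412, edgeR's quasi-likelihood test) and came to -0.03 without MCF10A replicate 2.

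HLA-F, a nonclassical heavy chain of low abundance here, had 14.4 and 13 CPM in MCF10A and 15.5 and 19.6 CPM in G12V. The higher MCF10A and the lower G12V library were close together. Its log2 fold change of 0.35 ± 0.25 (SE, n = 2 per group) did not pass (adjusted p = 0.453, edgeR's quasi-likelihood test).

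The heavy chain genes are related members of one family, so reads can be shared out or lost differently by aligner and counter, and their separate levels are uncertain to that extent. Their shares of each library's heavy chain reads were computed after the values had been seen and are given without a test. HLA-B held 21.5% and 19.9% of the reads of the 4 genes in MCF10A and 38.2% and 40.0% in G12V. HLA-E held 31.1% and 45.4% in MCF10A and 18.5% and 22.3% in G12V. For both genes the groups did not overlap, HLA-B taking the larger share in G12V and HLA-E the smaller. HLA-C, at 44.5% and 32.7% against 40.9% and 35.3%, overlapped between groups, and so did HLA-F, at 2.97% and 2.08% against 2.43% and 2.44%.

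**Figure D2:**
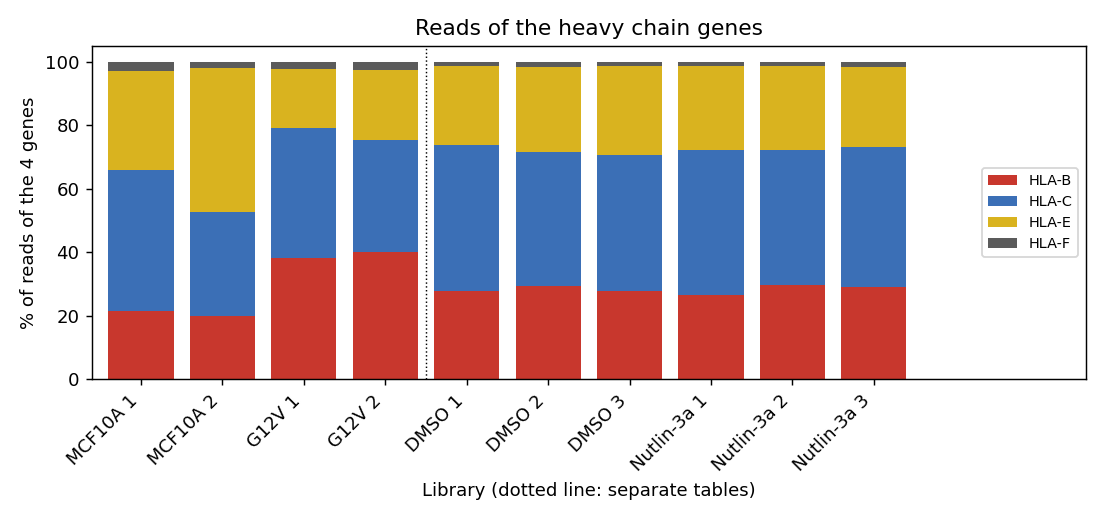
Share of HLA-B, HLA-C, HLA-E and HLA-F in the summed reads of these 4 genes (y axis, %), 1 bar per library, with the dotted line between tables counted on different annotations. HLA-B takes 38.2% and 40.0% in the G12V libraries beside 21.5% and 19.9% in MCF10A, and the 6 bars at right are alike, with HLA-B at 26.3% to 29.8%.

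B2M, the light chain that every class I heavy chain needs to reach the surface, is the member on another chromosome (chromosome 15, 45003685 to 45010357 in hg19, plus strand). Its libraries read 459 and 589 CPM in MCF10A and 567 and 682 CPM in G12V. The ranges overlapped, and the log2 fold change was 0.25 ± 0.24 (SE, n = 2 per group, 95% interval -0.34 to 0.85, adjusted p = 0.598, edgeR's quasi-likelihood test). Per kilobase of the canonical transcript B2M was nonetheless the most abundant member, at 556 ± 96.9 CPM per kb in MCF10A and 662 ± 86.3 in G12V (SD, n = 2), beside 74.5 ± 8.86 and 183 ± 35.4 for HLA-B and 136 ± 5.80 and 176 ± 9.85 for HLA-C. HLA-B thus lay below HLA-C in both MCF10A libraries on this scale, while in G12V their ranges overlapped.

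TAP1 is an ATP-binding subunit of the transporter and lies next to PSMB9 (chromosome 6, 32812986 to 32821748 in hg19, minus strand). It was read at 39.2 and 61.8 CPM in MCF10A and at 81.7 and 114 CPM in G12V. Both G12V libraries were higher than both MCF10A libraries, and the lower value of each group belonged to replicate 1. The log2 fold change was 0.95 ± 0.29 (SE, n = 2 per group, 95% interval 0.25 to 1.66). The adjusted p was 0.0951 by the quasi-likelihood test of edgeR, 0.0362 by DESeq2 and 0.0245 by edgeR's exact test, so its call depended on the test. The other unpaired settings of edgeR's quasi-likelihood test gave adjusted p-values up to 0.119.

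TAP2, the partner subunit, had 115 and 81.5 CPM in MCF10A and 161 and 119 CPM in G12V. The lower G12V library was only slightly above the higher MCF10A library. Its log2 fold change of 0.51 ± 0.25 (SE, n = 2 per group) did not pass (adjusted p = 0.286, edgeR's quasi-likelihood test). Per kilobase TAP1 and TAP2 were close to each other in MCF10A, at 18.8 ± 5.95 and 17.4 ± 4.24 CPM per kb (SD, n = 2), and in G12V they stood at 36.4 ± 8.51 and 24.8 ± 5.28.

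PSMB8 (LMP7), the immunoproteasome subunit with chymotrypsin-like activity, was the most even of the members (chromosome 6, 32808494 to 32812712 in hg19, minus strand). It had 34.9 and 33.7 CPM in MCF10A and 63.7 and 61.1 CPM in G12V. The gap between groups was far larger than the gap within either, with a log2 fold change of 0.86 ± 0.18 (SE, n = 2 per group, 95% interval 0.43 to 1.3, adjusted p = 0.0320, edgeR's quasi-likelihood test). Leaving out 1 library moved the fold change only between 0.83 and 0.91, but the adjusted p of edgeR's quasi-likelihood test then lay between 0.0614 and 0.187.

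PSMB9 (LMP2), which replaces PSMB6, was scarce in MCF10A and had the largest change of the 9 genes (chromosome 6, 32821938 to 32827628 in hg19, plus strand). It had 63 and 61 reads in MCF10A, or 2.86 and 2.69 CPM, and 317 and 530 reads in G12V, or 13.5 and 23.6 CPM. The MCF10A libraries were nearly equal, the G12V libraries differed from each other, and both were far above MCF10A. The log2 fold change was 2.74 ± 0.37 (SE, n = 2 per group, 95% interval 1.84 to 3.64, adjusted p = 0.00895, edgeR's quasi-likelihood test). Without MCF10A replicate 1 the adjusted p was 0.129, at a log2 fold change between 2.28 and 3.09 over all fits that left out a library.

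The antisense gene PSMB8-AS1 overlaps PSMB8 and TAP1, and the libraries do not mark strand, so its reads and theirs cannot be separated where they overlap. It stood at 0.760 CPM in MCF10A and 1.67 CPM in G12V on average (adjusted p = 0.146, edgeR's quasi-likelihood test). HLA-F has such a partner in HLA-F-AS1, at 1.5 and 2.27 CPM on average (adjusted p = 0.382, same test).

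**Figure D3:**
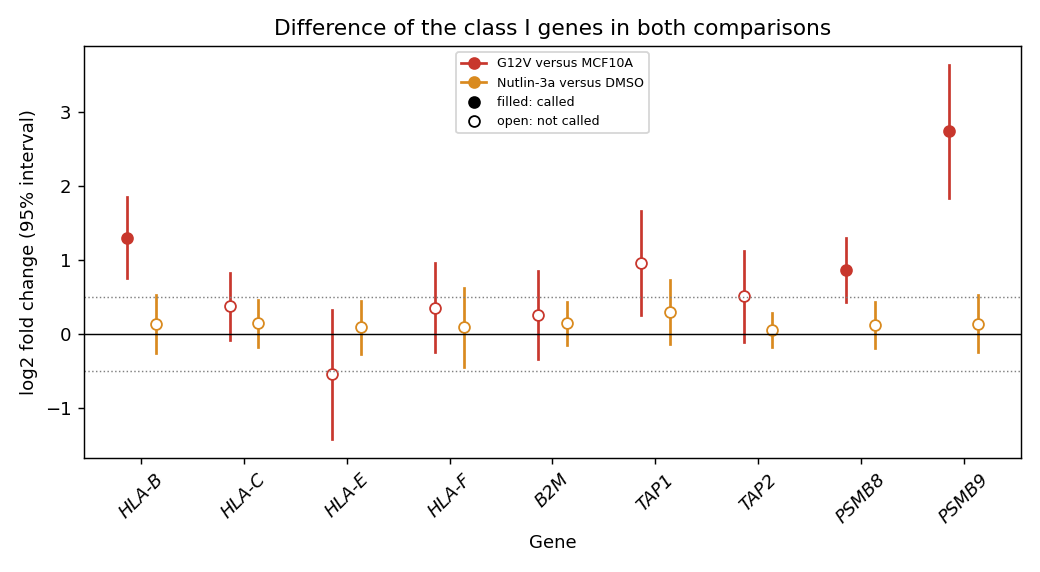
Log2 fold change of each class I gene (y axis) with its 95% interval (bars), for G12V against MCF10A (2 libraries each) and Nutlin-3a against DMSO (3 libraries each); filled points were called. HLA-B, PSMB8 and PSMB9 are filled in the G12V comparison, and all 9 points of the Nutlin-3a comparison are open, with intervals from -0.45 at the lowest to 0.72 at the highest.

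Because an immunosubunit takes the place of a constitutive one, each was also set against its counterpart within the same library, which needs no scaling between libraries. PSMB8 had 22.9 and 22.0 reads per 100 reads of PSMB5 in MCF10A and 40.3 and 37.7 in G12V. PSMB9 had 3.94 and 3.80 reads per 100 reads of PSMB6 in MCF10A and 21.0 and 36.2 in G12V. Both ratios were higher in each G12V library than in either MCF10A library. The differences were 0.80 and 2.82 on the log2 scale, each with an exact two-sided permutation p of 0.333, which is the smallest that 2 against 2 libraries allow.

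The constitutive partners themselves did not pass the test. PSMB5, PSMB6 and PSMB7 had log2 fold changes of 0.07, -0.14 and 0.13 (adjusted p = 0.871, 0.673 and 0.708, edgeR's quasi-likelihood test). Of the 14 constitutive subunits of the 20S core, edgeR's quasi-likelihood test called 0, and 2 had an unadjusted p under 0.05, with a median log2 fold change of 0.18. PSMB10, the third inducible subunit, which is encoded outside the MHC, averaged 16.5 CPM in MCF10A and 22.9 CPM in G12V (log2 fold change 0.48, adjusted p = 0.233, edgeR's quasi-likelihood test).

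**Figure D4:**
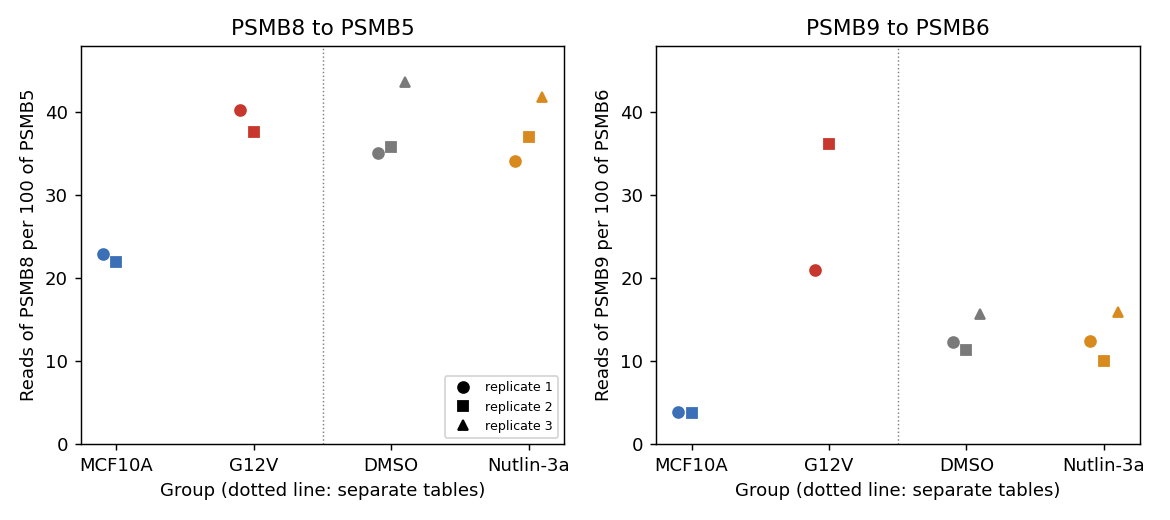
Reads of PSMB8 per 100 reads of PSMB5 (left) and of PSMB9 per 100 reads of PSMB6 (right), 1 point per library, with marker shapes for replicate numbers and a dotted line between tables. The G12V points (40.3 and 37.7 at left, 21.0 and 36.2 at right) lie above the MCF10A points, and the DMSO and Nutlin-3a points overlap.

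Of the other 21 class I pathway genes listed, 20 were found and tested and 1 rose, beside 5.01% called higher among all tested genes. PSME2, a subunit of the interferon-inducible PA28 cap of the proteasome, went from 57.4 ± 4.12 to 96.8 ± 0.731 CPM (SD, n = 2 per group; log2 fold change 0.75, adjusted p = 0.0429, edgeR's quasi-likelihood test). That call was lost without any 1 of the 4 libraries (adjusted p = 0.0823 to 0.248) and without the filter on low counts (adjusted p = 0.0626). Its partner PSME1 had a log2 fold change of 0.33 (adjusted p = 0.520, same test). The peptide-loading bridge TAPBP (0.52) and the trimming peptidases ERAP1 (0.41) and ERAP2 (0.71) were fitted higher on the log2 scale without passing (adjusted p = 0.326, 0.378 and 0.189, edgeR's quasi-likelihood test). The median of the 20 was 0.043 on the log2 scale.

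NLRC5, the transactivator of class I promoters, stood at 11.2 ± 3.22 CPM in MCF10A and 22.1 ± 2.55 CPM in G12V (SD, n = 2 per group). Its log2 fold change of 0.98 missed the threshold in edgeR's quasi-likelihood test (adjusted p = 0.0899) and passed it in DESeq2 (adjusted p = 0.0299) and in edgeR's exact test (adjusted p = 0.0322). Of the 30 regulators listed, all were tested and 2 rose, beside 5.01% called higher among all tested genes. JAK2, a kinase of the interferon gamma receptor, had a log2 fold change of 1.35 (adjusted p = 0.0230, edgeR's quasi-likelihood test), and NFKB2, the NF-κB subunit p100/p52, one of 1.13 (adjusted p = 0.0313, same test). JAK2 was not called without MCF10A replicate 2 (adjusted p = 0.0510), and neither was called without MCF10A replicate 1. IRF1 (0.49), which carries the interferon gamma response to these promoters, did not pass (adjusted p = 0.418, same test). The median of the 30 was 0.041.

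Of 31 tested interferon-stimulated genes outside the class I pathway, 5 rose and 2 fell, beside 5.01% and 5.95% of all tested genes. The antiviral modifier ISG15 (1.56), its conjugating enzyme UBE2L6 (1.26), IFI44L (2.40), the virus tether BST2 (1.51) and LGALS3BP (1.37) rose, by log2 fold changes with adjusted p-values from 0.00725 to 0.0426 in edgeR's quasi-likelihood test. OAS2, a sensor of double-stranded RNA, fell from 29 and 69 reads to 8 and 8, and the chemokine CXCL11 from 22 and 42 reads to 1 and 0. Beyond MCF10A replicate 1, ISG15 was lost without MCF10A replicate 2 (adjusted p = 0.0901) or G12V replicate 2 (0.0517), UBE2L6 without G12V replicate 2 (0.0760) or without the filter (0.0520), and OAS2 without MCF10A replicate 2 (0.198). The median log2 fold change of the 31 was 0.43, and members moved both ways.

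A list of class I-like proteins and immune receptor ligands, not all related to class I, had 1 of 16 tested genes higher and 3 lower. Over all tested genes 5.01% were called higher and 5.95% lower. CD274 (PD-L1), which restrains T cells, rose from 59 and 30 reads to 196 and 159 (log2 fold change 1.95, adjusted p = 0.0414, edgeR's quasi-likelihood test). RAET1G, a ligand of the NK receptor NKG2D, fell from 111 and 126 reads to 13 and 8. RAET1E, another, had a log2 fold change of -0.96 (adjusted p = 0.0401, same test), and the class I-like protein AZGP1 fell from 172 and 220 reads to 9 and 6. CD274 was lost without MCF10A replicate 2 (adjusted p = 0.124), and RAET1E without MCF10A replicate 2 (0.105), without G12V replicate 2 (0.115), without the filter (0.0515) and with library totals alone (0.0576).

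Most MHC class II genes had few reads. Of 14 listed, 5 passed the filter and edgeR's quasi-likelihood test called 0, with 1, HLA-DPA1, at an unadjusted p under 0.05. HLA-DPA1 had 5 and 7 reads in MCF10A and 19 and 30 in G12V (adjusted p = 0.0666, edgeR's quasi-likelihood test). CD74, the invariant chain, had 0 to 4 reads in the untreated libraries and HLA-DRA 0 or 1.

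**Figure D5:**
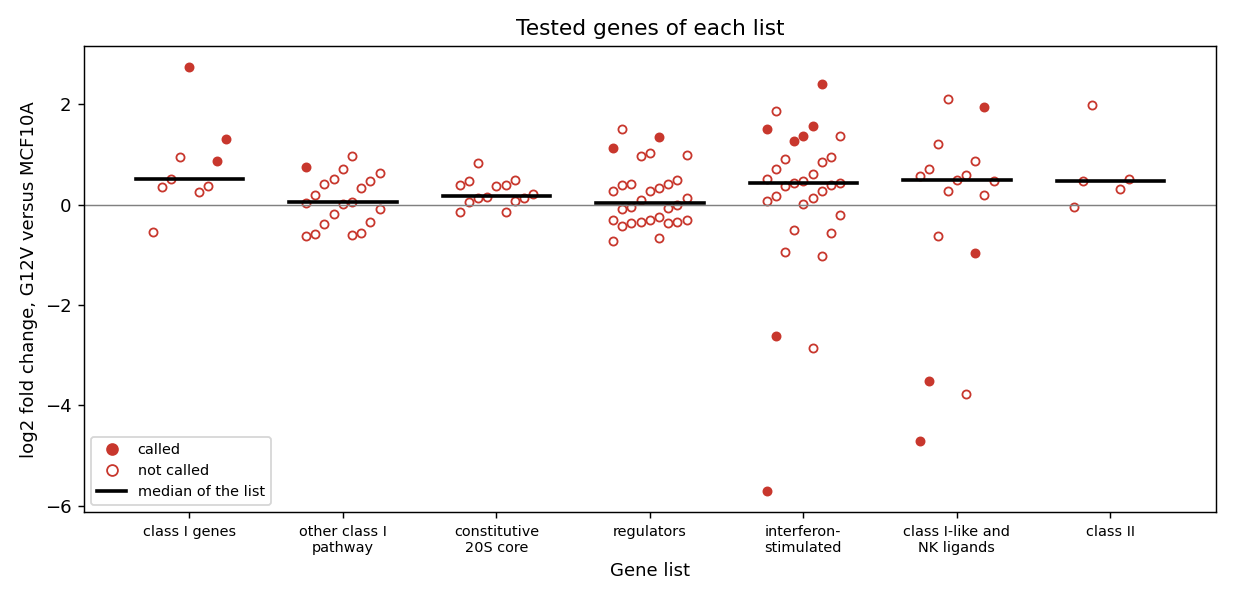
Log2 fold change of G12V against MCF10A (y axis) for every tested gene of 7 lists, with called genes filled and each list's median as a bar. The class I genes have a median of 0.51 and the constitutive 20S core one of 0.18 with no filled point; the lowest interferon-stimulated point is CXCL11, whose fitted value depends on the prior count because G12V had 1 and 0 reads.

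The members on chromosome 6 lie within the MHC, from HLA-F to PSMB9. Of the 84 tested genes between them that are not members, 1 rose and 4 fell, beside 5.01% and 5.95% of all tested genes. Their median log2 fold change was 0.096. IER3, an immediate early gene, rose from 111 to 273 CPM on average (log2 fold change 1.3, adjusted p = 0.0140, edgeR's quasi-likelihood test). The genes that fell were RNF39 (-3.57), the collagen receptor DDR1 (-2.15), CDSN (-2.12) and the mitochondrial valyl-tRNA synthetase VARS2 (-1.29), on the log2 scale, with adjusted p-values from 0.00970 to 0.0350 in the same test.

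After 4 h of Nutlin-3a, none of the 9 class I genes was called in parental MCF10A cells. edgeR's quasi-likelihood test without pairing called 0 of the 9, and 0 had an unadjusted p under 0.05. DESeq2, edgeR's exact test and the fit with replicate number as a block each called 0 as well. With the block, adjusted p-values of edgeR's quasi-likelihood test ran from 0.139 for TAP1 to 0.895 for HLA-F. Of 13529 tested genes 0.170% were called, and 3.42% had an unadjusted p under 0.05. The same libraries showed the p53 targets used as checks rising: MDM2 by 2.54 (adjusted p = 0.00133) and CDKN1A by 2.16 (adjusted p = 5.16e-04) on the log2 scale in edgeR's quasi-likelihood test.

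The summed epithelial markers ranged from 5097 to 7559 CPM in DMSO and from 5436 to 8006 CPM with Nutlin-3a, and PTPRC had no read in these 6 libraries. The fitted changes of the 9 genes were small and all above 0, from 0.05 for TAP2 to 0.29 for TAP1 on the log2 scale, with a median of 0.13 beside 0.0066 over all genes. The 95% intervals of all 9 in the unpaired fit lay between -0.45 and 0.72, so a 2-fold change either way was outside each of them. For B2M, HLA-C, HLA-E, PSMB8 and TAP2 the upper bound was also under the log2 threshold of 0.5. No member separated the groups, which 8.07% of all tested genes did.

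HLA-B had 196, 220 and 234 CPM in DMSO and 178, 253 and 283 CPM in Nutlin-3a replicates 1 to 3. The Nutlin-3a libraries spread to both sides of the DMSO libraries. Its log2 fold change was 0.13 ± 0.17 (SE, n = 3 per group, edgeR's quasi-likelihood test).

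PSMB9, the gene with the largest change in G12V, had 11.3, 9.99 and 11.7 CPM in DMSO and 11.4, 10.7 and 14.1 CPM with Nutlin-3a. The groups overlapped, and the log2 fold change was 0.14 ± 0.17 (SE, n = 3 per group). PSMB8 had 56.6, 55.1 and 65.6 CPM against 54.9, 63.1 and 73.8 CPM, a log2 fold change of 0.11 ± 0.14 (SE, n = 3 per group). Neither immunosubunit moved against its partner: PSMB8 had 35.1, 35.8 and 43.7 reads per 100 of PSMB5 in DMSO and 34.1, 37.1 and 41.9 with Nutlin-3a (log2 difference -0.02, exact permutation p = 0.9). PSMB9 had 12.3, 11.4 and 15.7 reads per 100 of PSMB6 in DMSO and 12.5, 9.98 and 15.9 with Nutlin-3a (log2 difference -0.05, exact permutation p = 1), where 3 against 3 libraries allow no p below 0.1.

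TAP1 had the largest fitted change with Nutlin-3a, at 60.8, 64.2 and 81.1 CPM in DMSO and 67.9, 77.3 and 107 CPM in Nutlin-3a replicates 1 to 3. Each treated library exceeded the DMSO library of its number, yet the groups overlapped (log2 fold change 0.29 ± 0.19, SE, n = 3 per group). With replicate number as a block the adjusted p of edgeR's quasi-likelihood test was 0.139. TAP2 was the most even member, at 187, 193 and 183 CPM in DMSO and 204, 180 and 199 CPM with Nutlin-3a.

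B2M had 683, 643 and 720 CPM in DMSO and 653, 749 and 852 CPM with Nutlin-3a. HLA-C had 325, 317 and 360 against 311, 361 and 432 CPM. HLA-E had 176, 203 and 234 against 178, 226 and 246 CPM. HLA-F, the scarcest of these 4 genes, had 9.06, 11.7 and 11.9 against 8.43, 11.2 and 15.1 CPM. In all 4 genes replicate 3 was the highest library of both groups, and replicate 1 of Nutlin-3a was no higher than the top DMSO library.

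Replicate 3 was in fact the highest library for 8 of the 9 genes in DMSO and for 8 of the 9 with Nutlin-3a, TAP2 being the exception in both. The mean of the members' centred log2 CPM was -0.15, -0.09 and 0.06 in DMSO replicates 1 to 3 and -0.16, 0.04 and 0.30 with Nutlin-3a. The members followed this mean with a Pearson r from 0.75 for PSMB9 to 0.98 for HLA-C, save TAP2 at -0.03. Among 9254 genes outside the members with at least 10 CPM on average, those most like it over these 6 libraries were RPL15, RPL30, RPS24, C19orf26 and RPS18 (Pearson r 0.992 to 0.997). These r-values describe 6 libraries of the same experiment that come in pairs, and most of the named genes encode ribosomal proteins.

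The other lists were also without calls at 4 h of Nutlin-3a. edgeR's quasi-likelihood test called 0 of the 19 other class I pathway genes tested, 0 of the 14 core proteasome subunits, 0 of 29 regulators and 0 of 26 interferon-stimulated genes, with 0, 0, 1 and 0 at an unadjusted p under 0.05. The tables of the G12V and Nutlin-3a experiments were counted on different annotations, in which the PSMB9 row spans 32811912 to 32827362 of chromosome 6 in the Nutlin-3a table and overlaps PSMB8 and TAP1, so levels were not compared between the experiments.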

How the data were processed

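RNA-seq read counts per gene, deposited by the authors without normalization, were used as deposited. Per the labels and the study's methods, poly(A) RNA with a kit that does not mark strand was aligned with TopHat to hg19 and counted with HTSeq. Annotations and the strand setting are not given in the sources used here. The 2 tables differ in annotation and were fitted separately. No identical libraries were found, and 0 sample columns were left unused. Replicates are biological per the labels.

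From the counts, edgeR 4.0.16 (R 4.3.3, limma 3.58.1) was run per comparison: filterByExpr defaults, TMM, quasi-likelihood F-test, Benjamini-Hochberg over all tested genes, log2 fold changes with a prior count of 0.125, SE from the fold change and the F statistic. Genes were called at adjusted p under 0.05 and absolute log2 fold change above 0.5. CPM per kb used GENCODE v44lift37 canonical transcript lengths. Subunit ratios carried 0.5 added counts and an exact two-sided permutation test. The fit was tested on simulated data. Tried besides were the exact test of edgeR, DESeq2 1.42.0, other scalings, filters, prior counts and thresholds, the replicate block and each library left out. Motifs and figures used Python 3.11.15 and matplotlib 3.10.9. Promoter coordinates are GRCh38.p14, all others hg19, and the builds were not mixed.

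In the Nutlin-3a experiment the replicate numbers of the labels paired the libraries: deviations from group means correlated at 0.64, 0.65 and 0.68 for the same number and at -0.50 to -0.21 otherwise. Deviations within a group cancel out, so the negative values are partly forced. The block called none of the class I genes.

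Members and lists were chosen with earlier results of these data known. Named were all 9 members, the checks HRAS, MDM2 and CDKN1A, every called gene of a list and the few genes a list's sentence is about. Marker genes, genes with few reads and the heavy chain shares were named after their values were seen. Intervals cover the spread of these few libraries, and the low counts of HLA-DRA, CD74 and the other genes with few reads limit what can be said of them. Some listed genes are not reported here.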

Additional observations from a re-analysis of the deposited data

How the results depend on the processing

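With 2 libraries per group, the calls in G12V cells depended on the libraries more than on scaling or filtering. Other scalings, filters and prior counts called the same 3 class I genes, and DESeq2, the exact test and the unadjusted threshold called 4. Leaving out 1 library gave 0 (MCF10A replicate 1) to 3 class I genes and 0 to 2129 genes of all, beside 1575, and the lone library of the reduced group was assumed to vary like the others. The exact test called 2536 genes and an unadjusted p under 0.05 with a fold above 1.3 called 3676. In the G12V comparison same-numbered deviations correlated at 0.54 in both pairs. With 2 libraries per group the deviations mirror each other, so this is a single value. Whether these pairs share more than a number is not stated. The fit with replicate number as a block called 6 class I genes (HLA-B, HLA-E as lower, PSMB8, PSMB9, TAP1, TAP2) and 4158 genes. In the Nutlin-3a comparison, with 23 genes called, DESeq2 called 88, the exact test 84, no filter 99, the block 165, the unadjusted threshold 332, and fits without 1 library 7 to 11. No setting called a class I gene there. The fitted direction turned without 1 library for HLA-B (-0.010 to 0.31), HLA-E (-0.020 to 0.21), HLA-F (-0.15 to 0.27) and PSMB8 (-0.0047 to 0.21), on the log2 scale. The cause of these shifts was not tested. The block left both subunit ratios at the same values.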
